A study of Homo sapiens with 15 samples.

Results

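The 2 vehicle groups of an array experiment in A2058 cells were compared with each other. A2058 is an established human melanoma line. The comparison took the 3 arrays of cells kept for 8 hours in DMSO and the 3 arrays of cells kept for 8 hours in water, 6 of 15 arrays, and members were chosen by the title of the array. The other 9 arrays held cells treated for the same time with NP at 3 μM, metformin at 5 mM or phenformin at 50 μM, in 3 replicates each. Cells of every group grew in EMEM with 10% FBS, carried no introduced gene or deletion named in the labels, and came from 3 independent experiments according to the design of the series. DMSO was the vehicle of NP and water that of the biguanides, so the comparison asks how far the 2 sets of controls lie apart before any drug is added.

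DMSO is a small polar solvent that carries poorly soluble compounds into culture medium. ATF4, to which several of the results below refer, is a transcription factor whose translation increases when amino acids are scarce or proteins misfold, and which switches on amino acid synthesis and transport. Replication-dependent histones are made in S phase, and their mRNAs end in a stem-loop instead of a poly(A) tail, which sets them apart from most transcripts on an array. snoRNAs are short RNAs, mostly cut from the introns of host genes, that guide the modification of ribosomal RNA.

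Vehicle and slide cannot be told apart in this design. DMSO replicates 1 and 2 lay on slide 1 and replicate 3 on slide 2, with the NP arrays beside them, whereas water replicates 1 and 2 lay on slide 3 and replicate 3 on slide 4, with both biguanides. Each slide was scanned in a run of its own. Across the features tested below, Pearson r was 0.9793 to 0.995 between DMSO arrays, 0.9875 to 0.995 between water arrays and 0.9757 to 0.9899 across the vehicles. DMSO replicates 1 and 2 correlated with DMSO replicate 3 at 0.9807 and 0.9793. With water replicate 3 they correlated at 0.9888 and 0.9899, and with water replicate 1 at 0.9796 and 0.979. DMSO replicate 3 correlated with NP replicate 3, on its own slide, at 0.9949. Between 25803 and 30170 of 58201 probes were well above background on the DMSO arrays and between 32163 and 45042 on the water arrays, with water replicate 1 the highest. The brightest spike-in control, RNA added in the same amount to every labeling, reached 16.44 to 16.68 on the log2 scale on the DMSO arrays and 17.50 to 17.70 on the water arrays. The log2 intensity at the 75th percentile, the point to which the arrays were scaled, was 7.17 on the array of DMSO replicate 3 and 7.88 to 8.10 on the other 5. Every value below is a log2 intensity minus that percentile, so that 0 is the level of the 75th percentile of an array, and a difference of 1 is a 2-fold difference in relative intensity.

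The melanocyte genes MITF, SOX10, PMEL, MLANA, TYRP1, DCT, S100B and PAX3 were well above background on all 15 arrays, and TYR on 13, so 8 of 9 markers of the lineage passed the filter on dim probes. AXL and NGFR, markers of the dedifferentiated state, were also above background on all arrays. Of 20 markers of other cell types, CD68, LYZ and HBA1 had no probe matched to them and were not measured. Of the rest, 9 were above background on every array, most of them dim, and EPCAM, CDH1 and KRT5 on none. Their part in the result was not tested. Among them KRT14, a keratin of basal epithelium, differed by -0.99 ± 0.13 (DMSO minus water, SE, n = 3 per group; limma adjusted p = 0.00151), CD3D by -0.73 ± 0.21 (adjusted p = 0.0296) and PDGFRB by 0.94 ± 0.18 (adjusted p = 0.00603). A further PDGFRB probe differed by 0.17. The level of the melanocyte list itself was close in both vehicles, with a median difference of -0.03 over 20 genes.

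Of 19579 genes or transcripts well above background on all 15 arrays, 1636 were differentially expressed genes (DEGs), with an absolute difference of at least 1.5-fold and an adjusted p of 0.05 or less in limma. They made up 8.36% of those tested. DEGs higher in DMSO numbered 781 (3.99%) and DEGs lower in DMSO 855 (4.37%). Most of these differences were modest. A difference of 2-fold or more was found in 74 of the DEGs higher in DMSO and in 80 of those lower in DMSO. The median absolute difference over all features was 0.24, and the median difference was -0.04. Of the DEGs, 1622 changed the same way in all 3 same-numbered pairs, and in 1580 the 3 DMSO arrays did not overlap the 3 water arrays. The DEGs were chosen for their difference in these same arrays, so both counts are high by selection. The replicate numbers do not pair DMSO with water arrays. Arrays that did not overlap were also common among genes that were not DEGs. Over all features, 12% had every DMSO array above every water array and 17.5% had every DMSO array below.

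The number of DEGs depended on the error model. With slide as a random block, the model that allows arrays of a slide to vary together, 88 DEGs were higher in DMSO and 273 lower, and 352 of these 361 were among the 1636. The correlation within a slide that this model estimated was 0.59, and the main fit has no slide term. When the 6 vehicle arrays were fitted without the other 9, limma gave 0 DEGs and 3523 features at an unadjusted p under 0.05. Without water replicate 1, 538 were higher and 651 lower. All 1636 DEGs kept their direction in each of these fits. The fits reuse the vehicle arrays in which the DEGs were found, so a kept direction is no independent check.

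Of the gene lists, replication-dependent histones had the largest share of DEGs. Of 51 histone genes tested, 29 were lower in DMSO, 56.9% against 4.37% of all features, and 0 were higher. In 40 every DMSO array lay below every water array, as in 17.5% of all features. The median difference over the list was -0.64, against -0.04 over all features, and it was -0.61, -0.65 and -0.62 in replicates 1, 2 and 3. All 5 histone families took part. Of the linker histones H1, 4 of 5 were lower in DMSO, with 6 of 11 for H2A, 8 of 14 for H2B, 5 of 9 for H3 and 6 of 12 for H4. H3 had the lowest median, -1.04.

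H4C5, which encodes histone H4, measured 4.73, 4.66 and 4.74 after DMSO and 6.11, 5.97 and 6.25 after water. H3C2, which encodes histone H3, measured 5.05, 5.10 and 5.07 after DMSO and 6.30, 6.25 and 6.31 after water. The replicates of each vehicle lay close together for both genes, and the groups were more than 1 apart. The difference was -1.40 ± 0.15 for H4C5 (SE, n = 3 per group; limma adjusted p = 0.00104) and -1.22 ± 0.14 for H3C2 (adjusted p = 0.00107). H2AC16, an H2A gene, was at 1.42, 1.32 and 1.40 after DMSO and at 2.60, 2.44 and 2.77 after water, a difference of -1.22 ± 0.10 (adjusted p = 0.00074). Near-identical histone genes can share probe signal, so a value for 1 gene may include its copies. Of the 29 histone DEGs, 13 were also DEGs with slide as a random block, where the list's median was -0.61, and 26 were without water replicate 1. Other genes of the cell cycle are to be read against the 8.36% of DEGs over all features. Of 45 G1/S and DNA replication genes, 1 was lower in DMSO (POLE, a DNA polymerase subunit, -0.71) and 0 higher, with a median of -0.02. Of 44 genes of mitosis, 2 were lower (AURKB, -0.79, and KIF20B, -0.69) and 1 was higher (ANLN, 0.69). A further probe of KIF20B differed by 0.70, in the opposite direction.

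**Figure D1:**
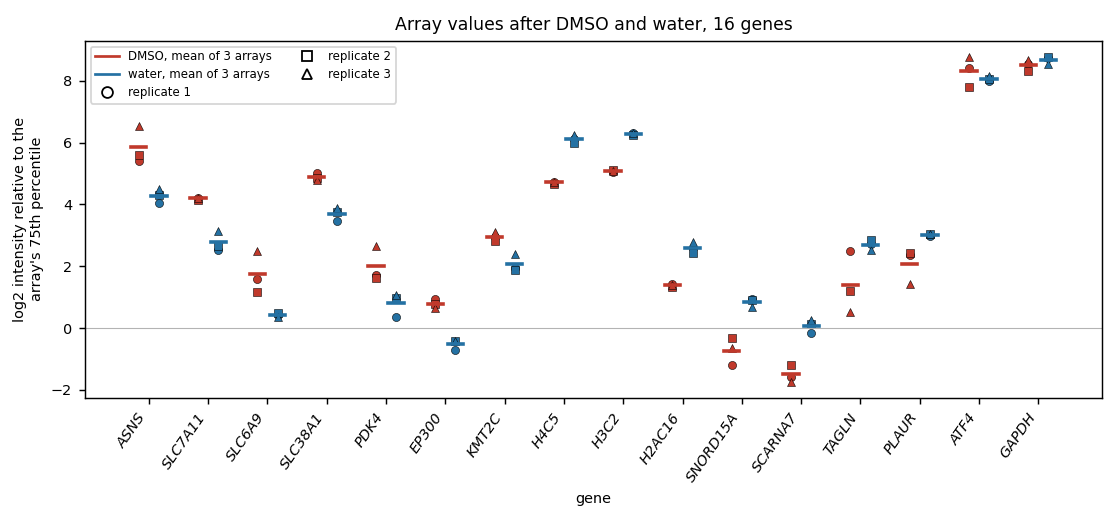
Values of 16 genes on each DMSO and water array, on the log2 scale after the array's 75th percentile was subtracted; points are arrays, with a shape for each replicate number, and bars are means of 3. The histone points of a vehicle nearly coincide, whereas ASNS, SLC6A9 and PDK4 have DMSO replicate 3 as the highest array and TAGLN and PLAUR have it as the lowest.

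ATF4 target genes leaned the other way. Of 51 tested, 14 were higher in DMSO and 1 was lower, against 3.99% and 4.37% of all features, with a median of 0.27. ASNS, which makes asparagine and is a widely used readout of the amino acid response, measured 5.41, 5.59 and 6.54 after DMSO and 4.04, 4.32 and 4.48 after water. SLC7A11, the cystine importer, measured 4.20, 4.15 and 4.22 after DMSO and 2.54, 2.64 and 3.15 after water. SLC6A9, a glycine transporter, measured 1.58, 1.17 and 2.50 after DMSO and 0.42, 0.47 and 0.37 after water. In these 3 genes every DMSO array was above every water array, and the highest ASNS and SLC6A9 values were those of DMSO replicate 3. The SD of ASNS was 0.61 after DMSO and 0.22 after water. The differences were 1.57 ± 0.16 for ASNS (SE, n = 3 per group; limma adjusted p = 0.00101), 1.42 ± 0.16 for SLC7A11 (adjusted p = 0.00104) and 1.33 ± 0.22 for SLC6A9 (adjusted p = 0.00328).

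The other ATF4 targets higher in DMSO covered several steps of amino acid supply and stress signalling. They were CHAC1 (1.16), which degrades glutathione, the stress regulators NUPR1 (1.12) and JDP2 (1.08), and STC2 (0.81), a secreted glycoprotein. GPT2 (0.87) makes alanine, PSAT1 (0.82) and PSPH (0.64) belong to serine synthesis, and CBS (0.83) to the synthesis of cysteine. SLC38A2 (0.86) and SLC7A1 (0.71) carry neutral and cationic amino acids, and EPRS1 (0.73) loads glutamate and proline onto tRNA. VEGFA, which encodes an angiogenic growth factor, was the exception, with 1.23, 1.26 and 0.81 after DMSO and 2.10, 2.18 and 2.19 after water, a difference of -1.05. A second VEGFA probe differed by 0.22. ATF4 mRNA did not pass the test. It measured 8.40, 7.80 and 8.77 after DMSO and 7.98, 8.05 and 8.16 after water, the groups overlapped, and the difference was 0.26 ± 0.16 (adjusted p = 0.288).

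The size of the ATF4 list's difference varied between replicates. Its median was 0.39, 0.10 and 0.41 in replicates 1, 2 and 3. Of the 14 targets higher in DMSO, 5 were also DEGs with slide as a random block, where the median was 0.30, and 13 were without water replicate 1. The 1 lower target was a DEG in both. Of 24 amino acid transporters, 6 were higher in DMSO and 0 lower, against 3.99% and 4.37% of all features. They included SLC38A1, a glutamine carrier outside the ATF4 list, at 5.01, 4.85 and 4.80 after DMSO and 3.46, 3.76 and 3.89 after water (difference 1.18 ± 0.13, SE, n = 3 per group; limma adjusted p = 0.00104), and SLC1A3 (0.87), a carrier of glutamate and aspartate. Of 24 ER chaperones and ERAD genes, 1 was higher (SEL1L, 0.71, whose further probe differed by 0.09) and 1 was lower (CANX, -0.76, whose further probe differed by 0.51). HSPA5, the main chaperone of the ER, differed by -0.15 ± 0.14 (adjusted p = 0.476).

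Promoters of ATF4 targets often carry the C/EBP-ATF response element, spelled here as TGATGNAA and searched on both strands from 250 bases before to 50 after the gene start. The stretches around it in the 2 promoters whose element lies before the gene start are shown, because both genes belong to the group higher in DMSO. They are RefSeq sequences of GRCh38.p14, with the element in capitals (in CHAC1 it reads on the opposite strand). ASNS lies on the minus strand (chr7:97872443-97872502) and CHAC1 on the plus strand (chr15:40953236-40953295).
ASNS: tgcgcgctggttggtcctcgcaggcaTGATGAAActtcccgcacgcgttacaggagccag
CHAC1: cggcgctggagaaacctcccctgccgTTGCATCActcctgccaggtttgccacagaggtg
A promoter sequence was at hand for 10 of the 14 targets higher in DMSO, and 3 of these 10 held the element. It was held by 9 of the 32 list members with a promoter that were not DEGs, by 1.80% of the promoters of all tested features and by 3.88% of those of all DEGs higher in DMSO. The letters in the window are a description and do not show binding.

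Chromatin and transcription regulators with long transcripts were often higher in DMSO. The list was limited to long transcripts, and whether their length plays a part was not tested. Of 45 tested, 14 were higher and 1 was lower, against 3.99% and 4.37% of all features, with a median of 0.32. In 23 the DMSO arrays all lay above the water arrays, as in 12% of all features. EP300, a histone acetyltransferase and coactivator, measured 0.94, 0.77 and 0.66 after DMSO and -0.69, -0.42 and -0.42 after water (difference 1.30 ± 0.21, SE, n = 3 per group; limma adjusted p = 0.00308). KMT2C, a histone H3 methyltransferase, measured 2.93, 2.83 and 3.11 after DMSO and 1.93, 1.88 and 2.40 after water, a difference of 0.89 ± 0.10 (adjusted p = 0.00109). EP400 (0.85), KDM6A (0.79), BPTF (0.79), CREBBP (0.66) and ARID1A (0.65) were higher as well, and MED1 was lower (-0.65). The histone demethylase KDM6B rested on uneven arrays, with -1.78, -0.07 and -1.64 after DMSO and -2.83, -2.30 and -2.04 after water (1.23 ± 0.32, adjusted p = 0.0216). The median of the list was 0.51, 0.29 and 0.15 in replicates 1, 2 and 3. Of the 14 higher in DMSO, 9 were also DEGs without water replicate 1 and 5 with slide as a random block, where the median was 0.28. Of 52 KRAB zinc fingers, 1 was higher (ZNF184, 0.73) and 0 lower, with a median of 0.11.

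Many small nucleolar RNAs were lower in DMSO. Of 181 snoRNAs tested, 0 were higher and 31 lower, against 4.37% lower of all features, and 89 had every DMSO array below every water array, as did 17.5% of all features. The median was -0.30, with 23 of 102 C/D box snoRNAs (SNORD) and 8 of 79 H/ACA box snoRNAs (SNORA) lower. SNORD15A measured -1.19, -0.34 and -0.65 after DMSO and 0.96, 0.92 and 0.67 after water, the largest fall among the genes named by rule (-1.58 ± 0.31, SE, n = 3 per group; limma adjusted p = 0.00675). SNORD41 measured -3.11, -2.84 and -2.61 after DMSO and -1.58, -1.53 and -1.56 after water (-1.30 ± 0.17, adjusted p = 0.0015). The Cajal body RNA SCARNA7, which RefSeq classes apart from the snoRNAs, measured -1.57, -1.18 and -1.73 after DMSO and -0.16, 0.14 and 0.26 after water (-1.57 ± 0.18, adjusted p = 0.00104). The groups did not overlap in any of the 3.

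The genes that enclose the snoRNAs differed by less. A single tested gene enclosed 155 of the 181 snoRNAs, in the positions of RefSeq and without regard to strand. The median difference was -0.32 for these snoRNAs and -0.08 for their 86 enclosing genes, of which 0 were lower and 3 higher in DMSO. Of the 155 snoRNAs, 109 had a lower difference than their enclosing gene. RPS3 encloses SNORD15A and measured 6.62, 6.60 and 6.87 after DMSO and 6.89, 6.98 and 6.75 after water (-0.17, adjusted p in limma 0.411). TNPO2 encloses SNORD41 and differed by -0.03 (adjusted p = 0.86), and RPL13A, which encloses SNORD33 (-1.22), by -0.29 (adjusted p = 0.171). Of the 31 snoRNA DEGs, 11 were also DEGs with slide as a random block. With normexp background correction 9 of the 31 were DEGs, 16 snoRNAs were lower in all, and the median over the snoRNAs was -0.14. Other abundant noncoding RNAs went both ways. RN7SK, which restrains transcription elongation, differed by -0.67 and RN7SL1, the RNA of the signal recognition particle, by 0.60. MIR17HG, the host transcript of a cluster of growth-promoting miRNAs, measured -0.95, -0.46 and -0.89 after DMSO and 0.77, 0.35 and 0.51 after water (-1.31 ± 0.17, SE, n = 3 per group; adjusted p = 0.0015).

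The lists of ribosome, mitochondrial and proteasome genes had medians below 0, most of them close to 0 after quantile normalization. Of 47 ribosome biogenesis genes, 6 were lower in DMSO, 12.8% against 4.37% of all features, and 0 higher. The list's median was -0.09, or -0.07 after quantile normalization, and 0.03, -0.22 and -0.35 in replicates 1, 2 and 3. Without replicate 3 of every group the median was -0.04. Of the 6, 5 were also DEGs in that fit and 4 with slide as a random block. RRP1, a nucleolar processing factor, measured 0.36, 0.21 and -0.38 after DMSO and 1.47, 1.28 and 1.07 after water (-1.21 ± 0.10, SE, n = 3 per group; limma adjusted p = 0.00074). PPAN (-0.93), PES1 (-0.88), BOP1 (-0.68), RRP12 (-0.63) and MYBBP1A (-0.59) were the others. Of 74 mitochondrial ribosomal proteins, 4 were lower (MRPL38, -0.67, was the lowest), against 4.37% of all features, and 0 higher. In 33 every DMSO array lay below every water array, 44.6% against 17.5% of all features, and the median was -0.23, or -0.15 after quantile normalization. Over all features, 19.55% were lower at an unadjusted p under 0.05. Of 76 cytosolic ribosomal proteins 0 were DEGs in limma, 15 were lower at an unadjusted p under 0.05, and the median was -0.15, or -0.03 after quantile normalization. Complex I, the first enzyme of the respiratory chain, had 0 DEGs among 37 subunits, 11 lower at an unadjusted p under 0.05 and a median of -0.21, or -0.05 after quantile normalization. Complexes II to V had 1 among 38, CYC1 (-0.75), a heme protein of complex III, and a median of -0.17, or -0.02 after quantile normalization. The proteasome had 0 among 31, with 13 lower at an unadjusted p under 0.05 and a median of -0.17, or -0.02 after quantile normalization. Bright features were lower in general. With all features split by level into 5 equal bins, the median difference was -0.12 in the brightest bin and -0.02 to 0.02 in the other 4.

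The matrix and NF-kB lists had their lowest median differences in replicate 3, where TAGLN and PLAUR also differed most. TAGLN, an actin-binding protein, measured 2.50, 1.21 and 0.51 after DMSO and 2.73, 2.84 and 2.51 after water. PLAUR, the urokinase receptor, measured 2.35, 2.43 and 1.42 after DMSO and 2.98, 3.04 and 3.03 after water. In both genes DMSO replicate 3 was the lowest of the 6 arrays. The differences were -1.29 ± 0.39 for TAGLN (SE, n = 3 per group; limma adjusted p = 0.0419) and -0.95 ± 0.27 for PLAUR (adjusted p = 0.0317), and neither was a DEG without DMSO replicate 3 or without water replicate 1. A further TAGLN probe differed by -1.54. Of 38 tubulin and actin genes 5 were lower in DMSO (TAGLN, ACTN1, ZYX, MYL9 and TAGLN2), against 4.37% of all features. Of 43 mesenchymal and matrix genes 6 were lower (PLAUR, COL6A2, FN1, TGFBI, ITGB3 and ITGA5), and 0 were higher in both lists. With slide as a random block, 2 of the 5 and 3 of the 6 were also DEGs. Without replicate 3 of every group, 1 of the 5 and 5 of the 6 were. The median of the tubulin and actin list was -0.04, -0.31 and -0.29 in replicates 1, 2 and 3. The median of the matrix list was 0.10, -0.13 and -0.50 in replicates 1, 2 and 3. That of the NF-kB list was 0.05, -0.06 and -0.87. Of its 29 genes tested, 3 were lower (CXCL3, CXCL1 and ICAM1) and 1 was higher (CXCL5), against 4.37% and 3.99% of all features. Of the 3 lower, 0 were also DEGs with slide as a random block and 0 without replicate 3 of every group. CXCL5 was a DEG only in the second of these fits. FN1, which encodes fibronectin, was lower on every array (-0.70, -0.40 and -1.04 against 0.37, -0.04 and 0.22; -0.89 ± 0.16, adjusted p = 0.00426).

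**Figure D2:**
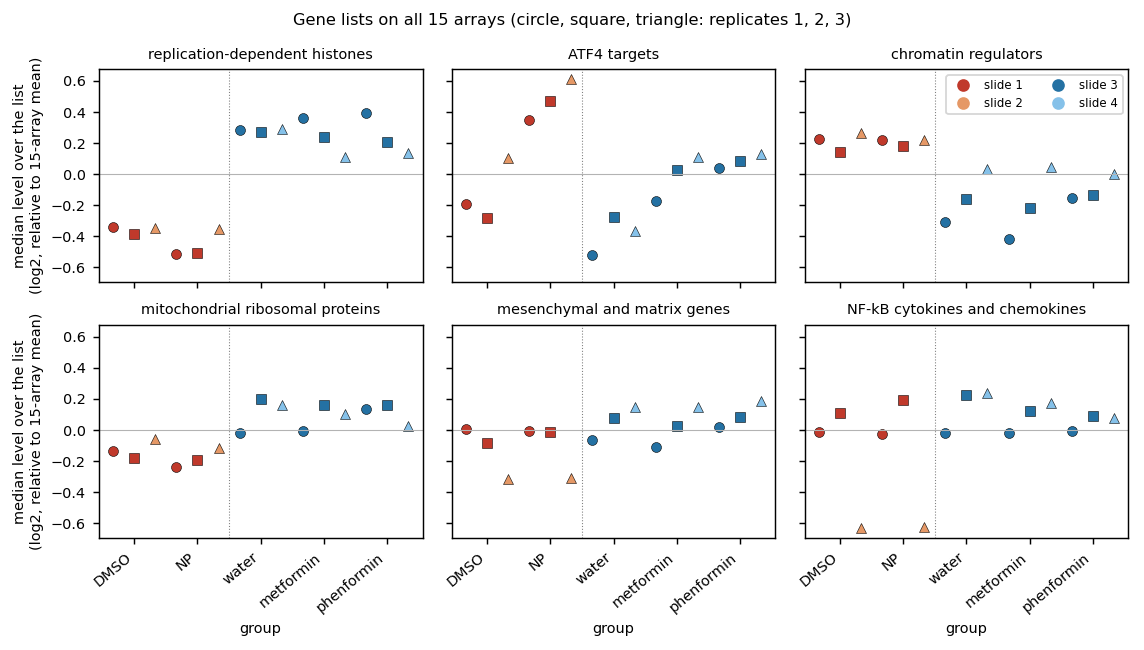
Median level over 6 gene lists on each of the 15 arrays, as log2 relative to the 15-array mean of each gene, with colours for the 4 slides and a dotted line between the slide sets. Histones split the arrays by slide set, between -0.51 and -0.34 on one side and between 0.11 and 0.39 on the other, whereas the NF-kB list sets apart the DMSO and NP arrays of slide 2 (-0.63 and -0.62).

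The counts of DEGs in metabolic and signalling lists are to be read against 3.99% higher and 4.37% lower of all features. Of 22 glycolysis genes 3 were lower (ALDOC, PFKFB4 and ENO1) and 0 higher, with a median of -0.18, or -0.03 after quantile normalization. ENO1, enolase, measured 6.87, 6.73 and 6.56 after DMSO against 7.41, 7.34 and 7.25 after water. ENO1 was also a DEG with slide as a random block and without water replicate 1. It was not a DEG after quantile normalization, without replicate 3 of every group or without DMSO replicate 3. GAPDH, which is often used as a reference gene, differed by -0.18 ± 0.11 (SE, n = 3 per group; limma adjusted p = 0.281) and by 0.00124 after quantile normalization. PDK4, which slows the entry of pyruvate into the citric acid cycle, measured 1.71, 1.62 and 2.66 after DMSO and 0.37, 0.97 and 1.07 after water (1.19 ± 0.25, adjusted p = 0.00851). TXNIP, a glucose-responsive inhibitor of glucose uptake, differed by -0.98 ± 0.40 and did not pass the test (adjusted p = 0.111). Of 26 p53 targets, 4 were higher (ZMAT3, 0.99, RRM2B, 0.74, CCNG1, 0.68, and TIGAR, 0.65) and 0 lower, but further probes of RRM2B and CCNG1 differed by -0.48 and -0.28. Of the 4, 1 was also a DEG with slide as a random block, 1 without water replicate 1 and 1 without DMSO replicate 1. Without replicate 3 of every group 3 were. Of 22 genes of the ERK pathway, 2 were higher (ETV5, 0.87, and SPRED1, 0.74) and 0 lower. The list's median was nevertheless -0.18, with 9 genes above 0 and 13 below. Every DMSO array lay above every water array in 4 of them and below in 7, against 12% and 17.5% of all features. The list's median was 0.14, -0.09 and -0.36 in replicates 1, 2 and 3. Of 35 immediate early genes, NR4A1 was higher (1.46) and FOSL2 (-1.12) and DUSP2 (-0.72) were lower. NR4A1 measured -0.37, -0.05 and -1.52 after DMSO and -1.72, -1.46 and -3.15 after water, so that the groups overlapped. It was not a DEG with no replicate block (adjusted p in limma 0.121) or with slide as a random block (adjusted p = 0.132).

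The other lists had between 0 and 4 DEGs each, and their shares, in brackets, are to be read against 8.36% of all features. NRF2 targets had 3 higher and 1 lower of 23 (17.4%) and HIF1 targets 0 and 2 of 20 (10%). Fatty acid synthesis had 2 and 1 of 14 (21.4%), sterol synthesis 1 and 1 of 23 (8.7%), and tRNA synthetases 1 and 1 of 19 (10.5%). Splicing factors had 0 higher and 3 lower of 55 (5.5%) and autophagy and lysosome genes 1 and 1 of 54 (3.7%). Interferon-stimulated genes had 1 and 0 of 34 (2.9%), and TGF-beta and YAP targets 0 and 1 of 22 (4.5%). The melanocyte list had 1 lower of 20 (5%), OCA2 (-0.60). Heat shock genes (21), metallothioneins and zinc genes (7), MondoA targets (8) and noncoding snoRNA hosts (19) had 0 DEGs.

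The remaining genes with the largest differences belonged to no single list. Higher in DMSO were FAM135A (1.57), IGSF11 (1.41), an adhesion molecule, FLJ43315 (1.35), BCL10 (1.31), an adaptor of NF-kB signalling, LCOR (1.22), a nuclear receptor corepressor, APOOP5 (1.20), ZSCAN31 (1.19) and LRRC58 (1.19). Lower in DMSO were LINC02202 (-1.52), PLEKHN1 (-1.46), ADD1 (-1.40), a membrane skeleton protein, NADK2 (-1.29), the mitochondrial NAD kinase, ICA1-AS1 (-1.26), PHKA1 (-1.25), a subunit of phosphorylase kinase, HAPLN2 (-1.24), KRT17 (-1.23), a keratin, and A2M (-1.22), a protease inhibitor. FAM135A measured -0.62, -2.08 and -2.21 after DMSO and -3.60, -2.81 and -3.21 after water. BCL10 and ICA1-AS1 had groups that overlapped, and a second PHKA1 probe differed by 0.91. NADK2 was tighter, at -1.10, -1.26 and -1.12 after DMSO and 0.20, 0.03 and 0.14 after water.

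Different probes of a gene often disagreed. Of the DEGs with a symbol, 264 had at least 1 further probe well above background on all 15 arrays, 317 probes in all. Of these probes 195 (61.5%) differed in the direction of the DEG, against 57.6% over all features with a further probe. A difference in that direction of at least 1.5-fold was found in 67 (21.1%). Over 4329 pairs of probes of the same gene, DMSO minus water correlated with a Pearson r of 0.194, a value across probes, which are not independent replicates. The same r was 0.382 for NP minus DMSO, 0.453 for metformin minus water and 0.335 for phenformin minus water, which are comparisons within slides. DEGs lower in DMSO had further probes that were lower in 96 of 136 cases, and DEGs higher in DMSO had further probes that were higher in 99 of 181. The median difference of the further probes was -0.38 for DEGs lower in DMSO and 0.04 for DEGs higher in DMSO. The named genes with a single bright probe have no such check.

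The same slides carried a second comparison without shared arrays. NP lay on the slides of DMSO and was dissolved in it, and both biguanides lay on the slides of water, so NP minus the mean of metformin and phenformin holds the difference between slide sets and vehicles together with that between the compounds. It gave 3040 DEGs, 15.5% of those tested. Of the 1636 DEGs of DMSO against water, 1635 had the same direction in it and 1325 (81.0%) were DEGs in it too, which were 43.6% of its own. The DEG with the opposite direction was DDI2, named after its values were seen (-0.74 against 0.26). Over all features 86.7% had the same direction, and the differences correlated across features with a Pearson r of 0.889. H4C5 differed by -1.39 in it, EP300 by 1.37, SNORD15A by -1.47 and SLC7A11 by 1.77. KDM6B, with 0.02, did not repeat. The histone list had a median of -0.69 in it, chromatin regulators 0.33, snoRNAs -0.31 and mitochondrial ribosomal proteins -0.28. The ATF4 list had a median of 0.50 in it, with 41 of 51 genes above 0 and 10 below. Array by array, the ATF4 list did not split at the slide sets. It was lowest on the water arrays (-0.52 to -0.28), then on those of DMSO (-0.28 to 0.11) and the biguanides (-0.17 to 0.13), and highest on the NP arrays (0.35 to 0.61), so that the ranges of water and DMSO met. This order holds compound, vehicle and slide set together, and their parts in it cannot be told apart.

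**Figure D3:**
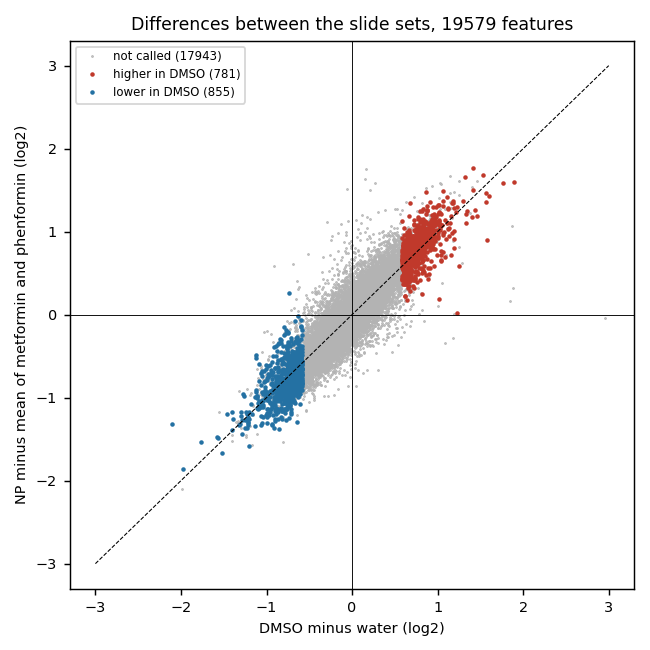
NP minus the mean of metformin and phenformin against DMSO minus water for 19579 features, both as log2 differences, with DEGs of DMSO against water in colour and the dashed line at equal values. The 2 differences share no array but the same slides and vehicles, and 1635 of 1636 DEGs lie in the quadrants of equal direction.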

How the data were processed

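Spot intensities of 15 single-color Agilent arrays of human gene expression, as deposited by the authors, were used. The authors extracted them with Agilent Feature Extraction (9.1 per the labels, 10.7.3.1 per the file headers), which subtracts background and detrends but does not normalize between arrays. The authors' table of log2 values, scaled by percentile (75) and floored at 4, was an alternative. Control spots were left out, outlier spots were set to missing (162 of 293685 values of tested features), spots of a probe were averaged as log2 intensity, and each array's 75th percentile was taken off. Probes well above background on all 15 arrays (24075 of 58201) were kept, and the probe with the highest mean stood for its gene. MRPL18 lacks DMSO replicate 3 for this reason. RefSeq accessions gave symbols to 31104 of 33080 probes that carry one, and GRCh38.p14 served for names, neighbours and promoters, not for the array design.

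limma 3.58.1 (R 4.3.3, statmod 1.5.0) was fitted over all 15 arrays with 5 groups and the replicate number as a block, two-sided, with Benjamini-Hochberg adjustment over 19579 features. The block follows the authors' paired test. Further steps used Python 3.11.15, pandas 2.3.3, numpy 2.4.6 and matplotlib 3.10.9. The fit was also run on simulated data. Their noise was independent between arrays, so that run cannot tell how the fit handles variation shared within a slide. The 36 gene lists, 1161 of whose 1247 genes were tested, and the members were chosen with earlier results of these data known, so list counts stand beside those over all features and no list was tested as a set. Named genes were the 15 largest rises and 15 largest falls among DEGs with a symbol and 1 direction in every same-numbered pair, up to 3 DEGs of each list with the largest change, and ASNS, ATF4, TXNIP, HSPA5 and GAPDH; other genes named are DEGs of the lists led with, enclosing genes of snoRNAs and abundant noncoding RNAs, chosen after their values were seen. Members of the sterol list are not reported singly. Precision is limited by the number of arrays, 3 per group. A comparison of 3 against 3 arrays cannot reach an exact permutation p under 0.1.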

Additional observations from a re-analysis of the deposited data

How the results depend on the processing

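The 781 DEGs higher and 855 lower in DMSO became 88 and 273 with slide as a random block and no replicate block, with 42 of the named genes and 52 of the list genes called, and 712 and 764 with no replicate block. Same-numbered DMSO and water arrays did not deviate together (r = -0.0229, -0.191 and -0.169), so the numbers do not pair them. The fit of the 6 vehicle arrays gave 0 and 0, with and without the block (the latter chosen after seeing the data), with 0 named genes and 0 list genes called and 3523 and 4477 features at an unadjusted p under 0.05. Normexp background correction gave 421 higher, and probes above background in at least 1 group gave 2088 lower. The methods' t-test gave 345 and 480 at its unadjusted p, with 45 named genes, and 0 and 2 after Benjamini-Hochberg adjustment, with 0 named genes. The share of calls that were higher in DMSO was 47.7%, but 24.4% with slide as a random block, 33.5% with normexp, 26.5% with the looser filter and 56.8% after quantile normalization. Leaving out arrays gave 0 to 1698 higher and 0 to 1896 lower. The zeros came without replicate 1 and without replicate 2 of every group (4527 and 3964 features at an unadjusted p under 0.05), and the highest counts without replicate 3; leaving out single arrays gave 505 to 1094 higher, the lowest without DMSO replicate 1, and 651 to 1048 lower. Named genes called ranged from 0 to 72 and list genes called from 0 to 167 under the same omissions. GAPDH turned to 0.00124 after quantile normalization, HSPA5 to 0.0488 without replicate 3 (-0.37 to 0.05 over the arrays left out) and KIF20B to 0.00644 with the mean of the probes of a gene. The causes were not tested. Dim probes are limited by background, and DMSO arrays had fewer probes above it.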
